A study of Mus musculus with 14 samples.

Results

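The 8 genes described here are markers of the choroid plexus epithelium: Ttr, Folr1, Kl, Clic6, Aqp1, Otx2, Enpp2 and Sostdc1. They were taken by gene symbol and Entrez number from a count table of 24100 genes, and all 8 were in it. The table covers 14 RNA sequencing libraries of mouse cerebellum at postnatal day 21. Every mouse carried the Tg(Pcp2-L10a-EGFP) bacTRAP transgene, in which the Purkinje cell promoter Pcp2 drives ribosomal protein L10a fused to EGFP. Translating ribosome affinity purification (TRAP) captures tagged ribosomes with antibodies against GFP, so a TRAP library is enriched for RNA under translation in Purkinje cells, and an input library holds RNA of the whole cerebellar homogenate. The study set littermates lacking Astn2 (Astn2 KO) against wild type (WT), with 4 input libraries from WT (1 female, 3 male), 3 input libraries from KO (2 female, 1 male), 3 TRAP libraries from WT (1 female, 2 male) and 4 TRAP libraries from KO (2 female, 2 male).

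The choroid plexus is a sheet of secretory epithelium around a vascular core inside the brain ventricles, and a part of it lies in the hindbrain ventricle directly beneath the cerebellum. Its epithelial cells make cerebrospinal fluid and carry hormones, vitamins and ions between blood and fluid. Transthyretin, the product of Ttr, is a main secreted protein of this epithelium and binds thyroxine and retinol-binding protein. The cells are not part of the cerebellar cortex, and Ttr is widely used as the sign that choroid plexus came along with a dissected piece of brain. In bulk RNA of this kind, fewer cells of a type and less RNA per cell cannot be told apart.

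Sequencing depth was 18.8 to 54.2 M counts per library, with M for 1e6. Levels are counts in each 1e6 counts of the library (CPM), corrected with TMM factors, which allow for the different make-up of input and TRAP RNA. Astn2 ranged from 0.729 to 2.11 CPM in the KO libraries and from 88.7 to 146 CPM in the WT libraries, so each library fitted its genotype label. Pcp2, the gene whose promoter drives the tag, had a log2 fold change of TRAP over input of 4.99 (SE 0.18) in WT and 4.52 (SE 0.20) in KO, and all 12 Purkinje cell markers on a fixed list were higher in TRAP in both genotypes, as were 37.0% (WT) and 36.3% (KO) of all genes tested. Nothing in the labels states which libraries come from the same mouse.

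Ttr (Entrez 22139, chr18:20664209-20674326, GRCm38) fell into a high and a low set of libraries, and the high set held both genotypes, both fractions and both sexes. Among the WT inputs, Ttr was 4.27, 359, 251 and 0.790 CPM in replicates 1 to 4. Among the KO inputs it was 2.66, 1078 and 1.09 CPM. The highest input library therefore held 1078 CPM and the lowest 0.790 CPM, and within each genotype at least 1 library stood on either side. In TRAP, Ttr was 2.12, 97.0 and 66.2 CPM in the 3 WT libraries and 1.83, 1.58, 1.88 and 1.15 CPM in the 4 KO libraries. The 5 libraries with more than 1000 Ttr counts were KO input 2, WT inputs 2 and 3, and WT TRAP 2 and 3; the other 9 had between 26 and 146 Ttr counts. The high set contained 1 female and 4 male libraries.

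**Figure D1:**
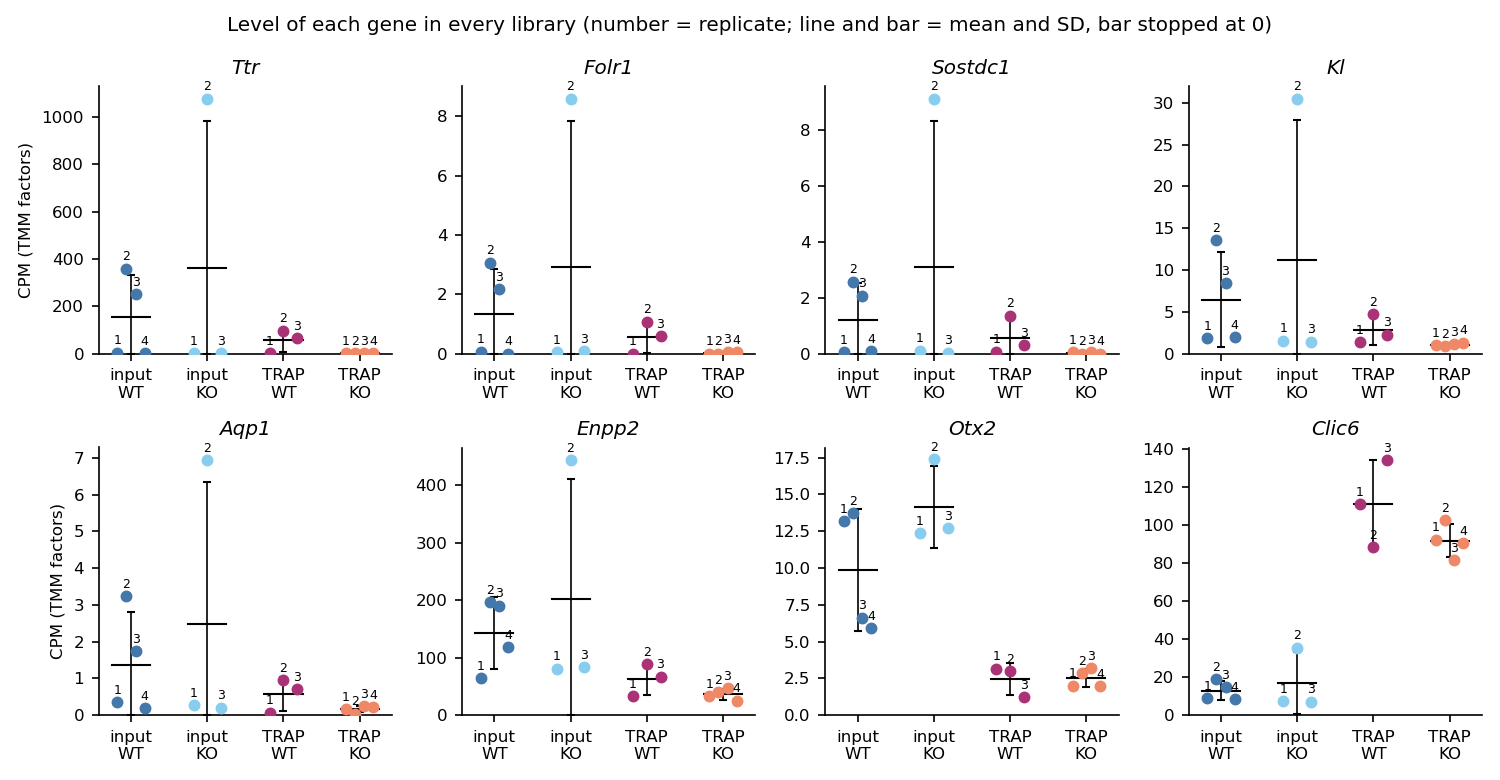
CPM with TMM factors (vertical axes, 1 panel per gene, each with its own scale starting at 0) in the 4 groups; every point is a library marked with its replicate number, and the line and bar give the mean and SD, with the bar stopped at 0. KO input 2 is the highest library for 7 of the 8 genes, and Clic6 is the gene whose TRAP libraries (81.6 to 134 CPM) all lie above its input libraries (7.03 to 35.5 CPM).

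Folr1 and Sostdc1 were close to absent wherever Ttr was low. Folr1 (Entrez 14275, chr7:101858331-101870788) encodes folate receptor alpha, which moves folate from blood into cerebrospinal fluid. Its raw counts were 524 in KO input 2, 150 and 111 in WT inputs 2 and 3, and 19 and 14 in WT TRAP 2 and 3. In the other 9 libraries Folr1 had 0 to 5 counts, with 0 in 4 of them. A count of 0 allows a level of up to 3 counts, or 0.0840 to 0.160 CPM in these 4 libraries, before TMM correction. Sostdc1 (Entrez 66042, chr12:36314169-36318452), a secreted antagonist of BMP and Wnt signals, had 556 counts in KO input 2, 126 and 106 in WT inputs 2 and 3, 24 and 7 in WT TRAP 2 and 3, and 0 to 5 counts elsewhere. Folr1 shares its span with Anapc15 on the opposite strand, with no shared exon bases in the annotation.

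Kl and Aqp1 followed the same libraries, and Kl kept a measurable level in the rest. Aqp1 had 6 to 14 counts in the inputs of low Ttr and only 1 to 5 counts in the TRAP libraries of low Ttr. Kl (Entrez 16591) encodes klotho, the co-receptor through which FGF23 signals, which the choroid plexus both displays and sheds. Kl was 1.84, 13.5, 8.45 and 1.98 CPM in the WT inputs and 1.54, 30.5 and 1.40 CPM in the KO inputs. In TRAP it was 1.37, 4.67 and 2.24 CPM in WT and 0.975, 0.912, 1.11 and 1.28 CPM in KO. The lowest 4 libraries for Kl were thus KO TRAP libraries, yet Kl stayed within 0.912 and 1.98 CPM in all 9 libraries of low Ttr. Aqp1 (Entrez 11826), the water channel of the apical epithelial membrane, was 0.351, 3.23, 1.74 and 0.182 CPM in the WT inputs and 0.271, 6.94 and 0.204 CPM in the KO inputs. Its TRAP levels were 0.0683, 0.957 and 0.705 CPM in WT and 0.0351 to 0.235 CPM in KO, and 2 of the 14 libraries had 3 counts or fewer. Aqp1 is also made by red blood cells, whose 4 markers (Hba-a2, Hbb-bs, Alas2 and Slc4a1) summed to 511 CPM in KO input 2, where Aqp1 was highest, and to 3403 and 459 CPM in KO inputs 1 and 3. In the WT inputs the same sum was 1713, 9397, 5476 and 2744 CPM in replicates 1 to 4, so WT inputs 2 and 3 were the highest for both Aqp1 and these markers, and among the WT TRAP libraries the sum was highest in replicate 2 (2726 CPM), as Aqp1 was. The part of red blood cells in the Aqp1 levels was not tested.

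Enpp2 and Otx2 stood above 5 CPM in every input, whether or not Ttr was high. Enpp2 (Entrez 18606, chr15:54838901-54952789) encodes autotaxin, the secreted enzyme that makes lysophosphatidic acid, and is also made by oligodendrocytes. Enpp2 was 64.3, 196, 190 and 118 CPM in the WT inputs and 80.9, 443 and 83.6 CPM in the KO inputs. In TRAP it was 32.9, 88.6 and 66.4 CPM in WT and 32.4, 39.3, 47.0 and 25.1 CPM in KO. The 3 highest inputs and the 2 highest TRAP libraries were those of high Ttr, while the summed level of 10 oligodendrocyte markers ran from 5056 to 7462 CPM over the inputs, with KO input 2 at the low end. Otx2 (Entrez 18424), a homeodomain transcription factor that the choroid plexus epithelium needs to form and is also known from the developing posterior cerebellum, did not follow Ttr in the WT inputs. It was 13.2, 13.8, 6.63 and 5.93 CPM there and 12.4, 17.4 and 12.7 CPM in the KO inputs. In TRAP, Otx2 was 3.15, 2.98 and 1.20 CPM in WT and 1.99, 2.84, 3.17 and 1.95 CPM in KO, so every input library stood above every TRAP library. WT inputs 3 and 4 were the 2 lowest inputs for Otx2, although Ttr was 251 CPM in the first and 0.790 CPM in the second. Opposite-strand transcripts overlap exons of both genes: Otx2os1 reached at most 0.426 CPM, and the Enpp2 neighbour Gm26684 has no row in the table.

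Clic6 was the 1 gene of the 8 whose TRAP levels all lay above its input levels. Clic6 (Entrez 209195, chr16:92498147-92541241) encodes a member of the chloride intracellular channel family and is a common marker of choroid plexus epithelium. Clic6 was 8.86, 18.7, 14.8 and 8.27 CPM in the WT inputs and 7.35, 35.5 and 7.03 CPM in the KO inputs. In TRAP it was 111, 88.2 and 134 CPM in WT and 92.3, 103, 81.6 and 90.3 CPM in KO. The lowest TRAP library exceeded the highest input library, and the TRAP libraries with high Ttr, WT 2 and WT 3, were the second lowest and the highest of the 7. Among the inputs, the 3 libraries of high Ttr were also the 3 highest for Clic6.

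Per kilobase of the longest annotated transcript, which allows levels to be set between genes, the order differed between the fractions. In WT input the mean level was 130 CPM per kb for Ttr (SD 152), 45.9 for Enpp2 (SD 20.3), 3.81 for Otx2 (SD 1.61) and 3.37 for Clic6 (SD 1.33), followed by Kl, Folr1, Sostdc1 and Aqp1 between 0.524 and 1.11 CPM per kb. Ttr did not differ beyond its spread from Enpp2, since it was far below Enpp2 in WT inputs 1 and 4 and above it in WT inputs 2 and 3, nor did Otx2 from Clic6 or the last 4 from each other. In KO TRAP the order was Clic6 at 24.4 CPM per kb (SD 2.31), Enpp2 at 11.6 (SD 3.03), Ttr at 1.36 (SD 0.281) and Otx2 at 0.959 (SD 0.237), where Ttr and Otx2 overlapped in their spread, with the remaining 4 at 0.0137 to 0.184 CPM per kb. In WT TRAP, Ttr at 46.5 CPM per kb (SD 40.8), Clic6 at 29.5 (SD 6.11) and Enpp2 at 20.2 (SD 9.06) overlapped in their spread.

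Promoter windows from RefSeq (GRCm38.p6, 250 bases before to 50 after an annotated start) were on hand for 3 of the 8 genes, in 6 windows. They are shown for Kl and Aqp1, whose levels followed Ttr, and for an internal start of Otx2, whose levels did not; the last window shown belongs to the non-coding gene 2410124H12Rik described further on. The 2 windows on chromosomes 5 and 6 run on the plus strand (chr5:150952357-150952656 for Kl, chr6:55336049-55336348 for Aqp1), the Otx2 window on the minus strand (chr14:48665060-48665359), and the window of 2410124H12Rik on the plus strand (chr16:92478492-92478791). Capitals mark the 1 match in these windows to TAATCC or its reverse complement GGATTA, the core recognised by OTX-type homeodomains.
Kl: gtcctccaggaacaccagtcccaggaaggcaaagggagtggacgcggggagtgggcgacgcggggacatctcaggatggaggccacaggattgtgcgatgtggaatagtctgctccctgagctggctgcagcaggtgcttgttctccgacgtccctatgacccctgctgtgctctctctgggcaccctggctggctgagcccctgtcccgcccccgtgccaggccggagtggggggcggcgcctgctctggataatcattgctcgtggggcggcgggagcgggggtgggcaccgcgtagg
Aqp1: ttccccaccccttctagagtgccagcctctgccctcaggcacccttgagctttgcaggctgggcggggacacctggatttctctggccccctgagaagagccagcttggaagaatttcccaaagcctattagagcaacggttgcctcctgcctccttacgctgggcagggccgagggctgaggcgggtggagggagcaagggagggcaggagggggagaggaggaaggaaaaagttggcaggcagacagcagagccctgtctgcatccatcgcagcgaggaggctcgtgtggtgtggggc
Otx2: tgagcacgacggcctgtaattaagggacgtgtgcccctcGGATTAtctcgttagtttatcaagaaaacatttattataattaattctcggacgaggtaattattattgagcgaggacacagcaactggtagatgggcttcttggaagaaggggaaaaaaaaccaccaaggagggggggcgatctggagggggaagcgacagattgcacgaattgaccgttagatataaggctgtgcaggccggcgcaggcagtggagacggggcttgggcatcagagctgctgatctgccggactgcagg
2410124H12Rik: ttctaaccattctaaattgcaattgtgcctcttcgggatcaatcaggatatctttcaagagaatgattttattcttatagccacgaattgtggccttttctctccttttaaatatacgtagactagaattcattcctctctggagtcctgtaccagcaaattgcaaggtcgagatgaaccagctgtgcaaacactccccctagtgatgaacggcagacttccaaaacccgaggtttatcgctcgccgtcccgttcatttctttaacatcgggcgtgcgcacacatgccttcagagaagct
The match lies at position 40 of the Otx2 window, and 7.06% of 32851 promoter windows of this length hold 1 or more. The 3 other Otx2 windows held none, so the window shown is the one with a match. A link of the match to the levels was not tested. The Kl window had 19 CG dinucleotides, the Aqp1 window 8, the Otx2 window 16 and that of 2410124H12Rik 13, against a median of 7 over all windows.

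Ratios to Ttr show how evenly the genes moved in the 5 libraries where Ttr was high. Folr1 stood at 7.97, 8.54, 8.64, 11.0 and 8.77 counts per 1000 Ttr counts in KO input 2, WT input 2, WT input 3, WT TRAP 2 and WT TRAP 3. The ratio was somewhat higher in the 2 TRAP libraries, where it rests on 19 and 14 Folr1 counts, while Ttr itself had 65733 counts in the first of these libraries and 1724 in the fourth. Kl stood at 28.3, 37.7, 33.6, 48.1 and 33.8 per 1000 in the same order. Aqp1 ranged from 6.44 to 10.7 and Sostdc1 from 4.39 to 13.9 per 1000, the last on only 7 to 24 counts in TRAP. The sum of 20 other choroid plexus epithelium genes on a fixed list (among them Kcnj13, Kcne2, Cldn2, F5 and Ecrg4) gave 127, 163, 193, 179 and 208 counts per 1000 Ttr counts. Enpp2 stood at 411 in KO input 2, between 546 and 758 in the WT inputs and at 913 and 1004 in WT TRAP, and Otx2 lay between 16.1 and 38.3. For Clic6 the ratio was 32.9, 52.2 and 59.0 in the 3 inputs but 909 and 2026 in the 2 TRAP libraries.

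**Figure D2:**
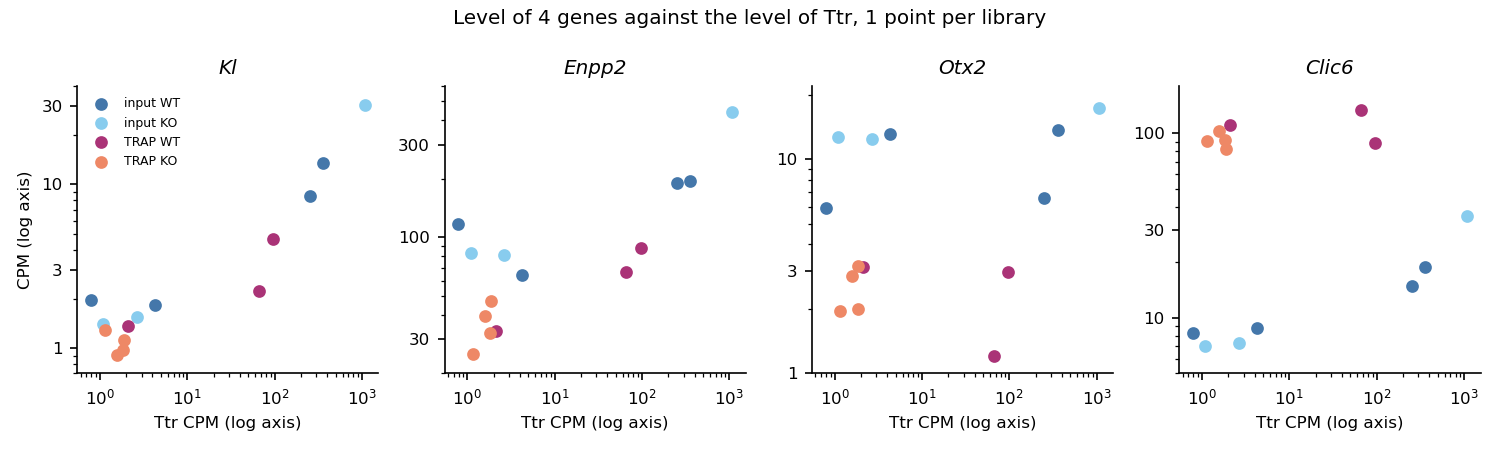
CPM of Kl, Enpp2, Otx2 and Clic6 (vertical log axes, each with its own range) against CPM of Ttr (horizontal log axis), 1 point for each of the 14 libraries coloured by group. Kl is higher in the libraries of high Ttr in both fractions. Among the libraries of low Ttr, Kl does not climb with Ttr, and its inputs all lie above its TRAP libraries. Otx2 separates by fraction at any Ttr level. The 7 TRAP libraries of Clic6 lie in 1 row at 81.6 to 134 CPM whether Ttr is 1.15 or 97.0 CPM.

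A straight line through the 7 inputs gives the same picture in CPM, as a description over libraries that fall into 2 clusters. Clic6 gained 25.9 CPM for each 1000 CPM of Ttr and stood at 8.09 CPM where the line reaches zero Ttr. Without KO input 2 its gain was 29.7 CPM. Whether the slope of the 7 inputs holds in TRAP was not tested. If it did, the Ttr of WT TRAP 2 and 3 would go with 2.51 and 1.71 CPM of Clic6. These are 2.85% and 1.28% of the Clic6 measured in those libraries. Folr1, Kl and Enpp2 gained 7.97, 27.1 and 330 CPM, from 0.0678, 1.90 and 87.9 CPM at zero Ttr. Otx2 gained 5.92 CPM from 10.3 CPM at zero Ttr, and 0.380 CPM without KO input 2.

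Of the 5 genes whose levels moved most like Ttr, 4 were on the choroid plexus lists. Likeness was Pearson's r of log2(CPM + 1) across the 14 libraries after each fraction's mean had been removed. It covered 14039 genes with a mean of at least 1 CPM in 1 or more groups. For Ttr it rests on the 5 libraries of high Ttr, and for Clic6 mainly on the inputs among them. WT TRAP 2 and 3 were the second lowest and the highest TRAP libraries for Clic6. Likeness is given as a description. The 5 nearest to Ttr were Ecrg4, Kl, Folr1, 5930403L14Rik and Aqp1, with r from 0.935 to 0.947, and 19 of the nearest 50 were on the 2 choroid plexus lists. Among the 5 nearest to Clic6 were Cldn2, Abca4, 5930403L14Rik and Car12, with r from 0.944 to 0.957, and 21 of the nearest 50 were on those lists. With a pseudocount of 0.1 in place of 1, 2 of the 5 genes nearest to Ttr and 3 of the 5 nearest to Clic6 stayed among the 5.

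TRAP was compared with input in each genotype by edgeR's quasi-likelihood test over all genes, with a call at a Benjamini-Hochberg adjusted p under 0.05. In WT, 2 of the 8 genes were called: Clic6 was higher in TRAP by 3.09 on the log2 scale (SE 0.48, adjusted p = 4.94e-05), rank 300 of 16042 genes from the highest, and Otx2 was lower, at -2.07 (SE 0.37, adjusted p = 0.000160). Calls are common in this comparison, since 75.5% of all genes tested passed, 37.0% as higher and 38.5% as lower, so 2 of 8 is below the background. The other 6 had log2 fold changes from -1.06 to -1.43, among them Ttr at -1.43 (SE 1.89), Kl at -1.20 (SE 1.03) and Enpp2 at -1.16 (SE 0.58, adjusted p = 0.0814). Enpp2 was called lower without KO input 2 (-1.14) and without WT input 1 (-1.44). Of the 20 other choroid plexus genes, 3 were lower and none higher: Rdh5 at -2.74 (SE 0.41), Slc4a5 at -2.40 (SE 0.96) and Slc13a4 at -2.26 (SE 0.53), with a list median of -1.71 against -0.09 over all genes tested. The call for Slc4a5 was lost without WT input 2 (-1.88) or 3 (-2.37) or without WT TRAP 1 (-2.02) or 3 (-2.22).

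In KO, all 8 genes were called, Clic6 as higher and the other 7 as lower, where 75.9% of all genes tested passed, 36.3% as higher and 39.6% as lower. Clic6 had a log2 fold change of 2.54 (SE 0.51, adjusted p = 0.000502) and Otx2 of -2.46 (SE 0.34). Ttr stood at -8.57 (SE 2.78, adjusted p = 0.0125), Kl at -3.51 (SE 1.15), Aqp1 at -4.23 (SE 1.53) and Enpp2 at -2.59 (SE 0.59); Folr1 and Sostdc1, with 0 or 1 count in each KO TRAP library, were called lower as well. The calls of 5 genes were lost without KO input 2. Without it 3 genes were called, Clic6 as higher and Otx2 and Enpp2 as lower, and Ttr came to -0.57, Kl to -0.51 and Aqp1 to -0.72. Without KO TRAP 1, or without KO TRAP 2, 5 genes were called, and Folr1, Aqp1 and Sostdc1 were not, with Aqp1 at -4.40 and -3.84 and adjusted p from 0.0534 to 0.0685 for the 3 genes. Of the 20 other choroid plexus genes, 18 were lower and none higher, with a median of -3.26 against -0.11 over all genes tested. The largest changes among them were Ecrg4 at -6.46 (SE 1.71), F5 at -6.36 (SE 2.44), Kcne2 at -4.69 (SE 1.89) and Cldn2 at -4.37 (SE 1.07). Without KO input 2, Ecrg4 and Cldn2 stayed called at -3.48 and -2.38, Kcne2 turned to 0.95 and F5 was not called (-2.70); F5 was also not called without KO TRAP 1, 2 or 4 (-5.92, -5.88 and -8.47), and Kcne2 not without any 1 KO TRAP library (-5.08, -5.04, -4.68 and -4.37) or without WT TRAP 1 (-4.32).

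The same comparison was run without the 5 libraries of more than 1000 Ttr counts, a choice made after seeing the data, which left 2 WT inputs, 2 KO inputs, 1 WT TRAP and 4 KO TRAP libraries. The single WT TRAP library is then assumed to vary like the other groups. In both genotypes 3 of the 6 genes that passed the filter on low counts were called, where 59.4% of all genes passed in WT and 75.1% in KO; Folr1 and Sostdc1 were not tested. Clic6 was higher by 3.63 (SE 0.16) in WT and 3.67 (SE 0.13) in KO on the log2 scale. Otx2 was lower, at -1.71 (SE 0.48) and -2.36 (SE 0.28), and so was Enpp2, at -1.32 (SE 0.39) and -1.20 (SE 0.24). Ttr had log2 fold changes of -0.55 (SE 0.64) and -0.13 (SE 0.42) and Kl of -0.41 (SE 0.41) and -0.46 (SE 0.25), and neither was called. The libraries were left out for their Ttr counts, so a small Ttr fold follows from that choice and is given as a description. Of the 20 other choroid plexus genes 16 were tested, with 3 lower and none higher in WT (28.1% and 31.3% of all genes) and 10 lower and 1 higher in KO (38.8% and 36.3%), and medians of -1.14 and -1.42. In these 9 libraries Ttr was 0.790 to 4.27 CPM in input and 1.15 to 2.12 CPM in TRAP.

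**Figure D3:**
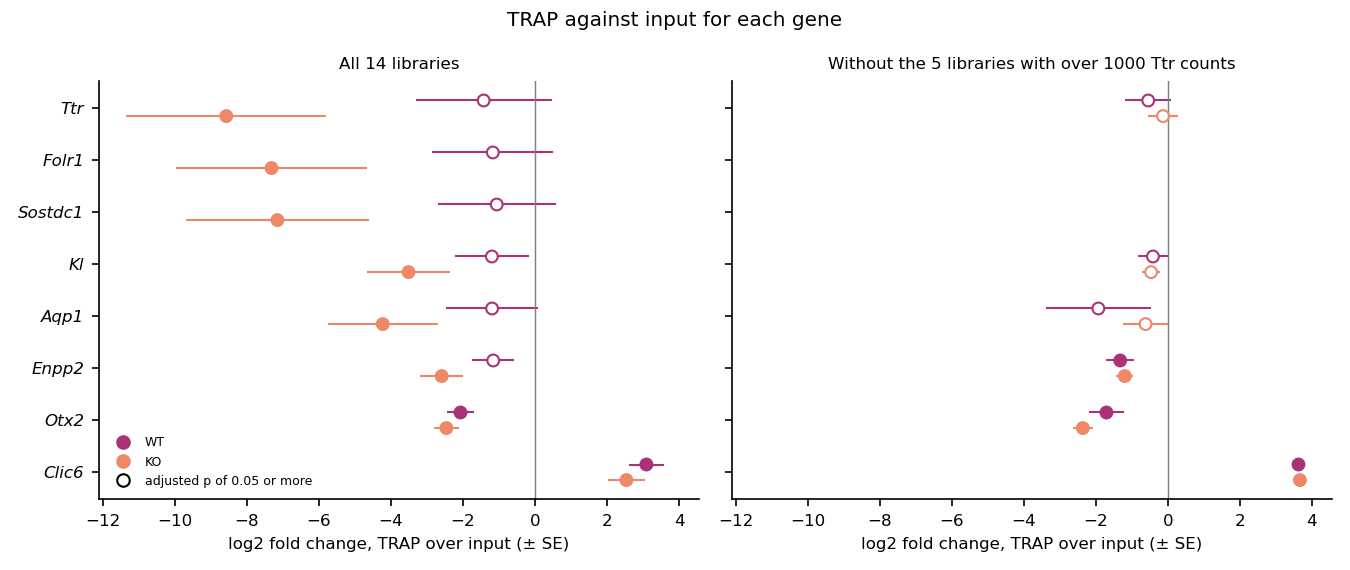
Log2 fold change of TRAP over input with its SE (horizontal axis) for the 8 genes in WT and KO, from all 14 libraries (left) and without the 5 libraries of more than 1000 Ttr counts (right, where Folr1 and Sostdc1 were not tested); filled points had an adjusted p under 0.05. Clic6 lies above 2 in all 4 estimates and Otx2 below -1; the right panel leaves libraries out by their Ttr counts, so its Ttr points are a description.

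Ttr in the WT TRAP libraries can be set beside RNA of other cells that the purification is meant to leave behind. In WT TRAP 2 and 3, Ttr stood at 27.0% and 26.4% of the input library of the same number, Folr1 at 34.9% and 26.7%, and Kl at 34.5% and 26.5%. The 20 other choroid plexus genes together stood at 29.8% and 28.4%. In the same pairs, 10 oligodendrocyte markers stood at 30.9% and 14.7%, and 10 granule cell markers at 24.7% and 16.1%. Other lists had higher sums: endothelium 36.3% and 32.7%, ependyma 57.9% and 40.2%, and astroglia 98.1% and 61.8%. The red blood cell markers stood at 29.0% and 10.5%. The astroglia sum does not stand for its members. In WT, 9 of the 10 astroglia genes were called lower in TRAP and 1 higher, with a median log2 fold change of -1.72 and a maximum of 2.63. Of all genes tested in WT, 38.5% were lower and 37.0% higher. The equal numbers are labels only, since no source says that they mark the same mouse. In KO, where input 2 was the library of high Ttr, Ttr in KO TRAP 2 was 0.146% of it, while the oligodendrocyte and granule cell markers stood at 32.3% and 30.0%. Whether the remaining RNA in TRAP comes from unbound input was not tested.

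The 20 other choroid plexus genes marked the same input libraries as Ttr. Their summed level was 136 CPM in KO input 2 and 58.4 and 48.4 CPM in WT inputs 2 and 3, against 18.7 to 23.3 CPM in the other 4 inputs. In TRAP it was 17.4 and 13.8 CPM in WT 2 and 3 and 7.12 to 10.9 CPM in the other 5 libraries. Markers of tissues next to the choroid plexus moved less: 10 ependymal genes summed to 20.9 to 35.6 CPM over the 7 inputs and 10 genes of meninges and fibroblasts to 84.0 to 208 CPM, with KO input 2 highest for both. The part of these tissues in the levels of the 8 genes was not tested.

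**Figure D4:**
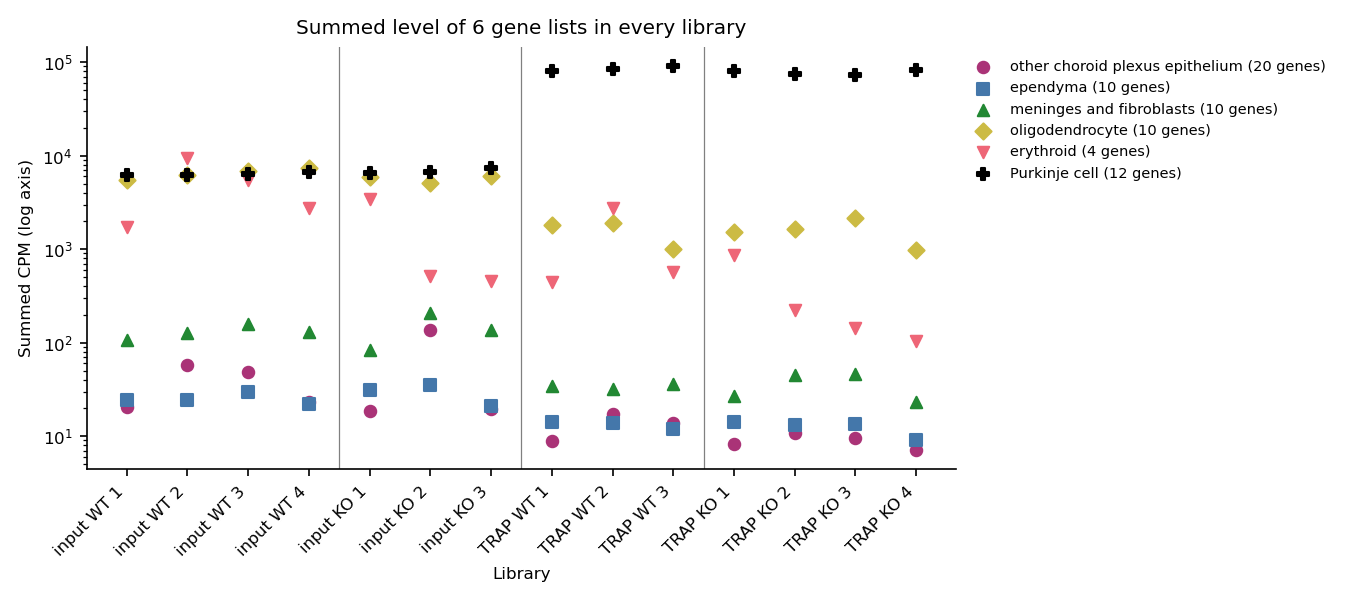
Summed CPM (vertical log axis) of 6 gene lists in each of the 14 libraries (horizontal axis, grouped by fraction and genotype). The choroid plexus list stands out in KO input 2 (136 CPM) and WT inputs 2 and 3, the oligodendrocyte list is even over the inputs, and the Purkinje cell list lies at 73240 to 90680 CPM in TRAP against 6231 to 7451 CPM in input.

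Clic6 has a neighbour that shares its enrichment in TRAP. The non-coding gene 2410124H12Rik (Entrez 76785, chr16:92478742-92497370) lies on the same strand and ends 776 bases before the RefSeq start of Clic6, and the GENCODE annotation starts a Clic6 transcript inside it, at position 92485736, with no shared exon bases. This gene, chosen after its values were seen, was 4.36, 3.33, 3.52 and 3.44 CPM in the WT inputs and 3.00, 3.82 and 2.92 CPM in the KO inputs. In TRAP it was 101, 126 and 56.4 CPM in WT and 98.9, 88.1, 78.3 and 66.0 CPM in KO. No input library of high Ttr stood apart for 2410124H12Rik, in contrast to Clic6. Its log2 fold change of TRAP over input was 4.67 (SE 0.22) in WT and 4.71 (SE 0.25) in KO, ranks 13 and 12 of 16042 genes from the highest. The count table has 1 value per gene, so transcripts that join both genes were not examined.

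Of the 4 further neighbours looked at on the chromosome, Rcan1 and Kcne2 are described here. Kcne1 was at most 0.0833 CPM and was not tested, and Runx1 was lower in TRAP, at -2.13 (SE 0.48) in WT and -1.65 (SE 0.39) in KO. Rcan1 (chr16:92391951-92466169), on the opposite strand and an inhibitor of calcineurin, was 32.1 to 37.8 CPM in the 7 inputs and 129 to 169 CPM in the 7 TRAP libraries, with log2 fold changes of 2.13 (SE 0.11) in WT and 1.99 (SE 0.11) in KO. Kcne2 (chr16:92292389-92298133), a potassium channel subunit of the choroid plexus epithelium, was 9.96 CPM in KO input 2, 3.11 and 2.37 CPM in WT inputs 2 and 3, and 0.0730 to 0.182 CPM in the other inputs. In TRAP, Kcne2 was 1.01 and 0.581 CPM in WT 2 and 3 and 0 to 0.195 CPM in the rest. Rcan1 was also chosen after its values were seen.

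**Figure D5:**
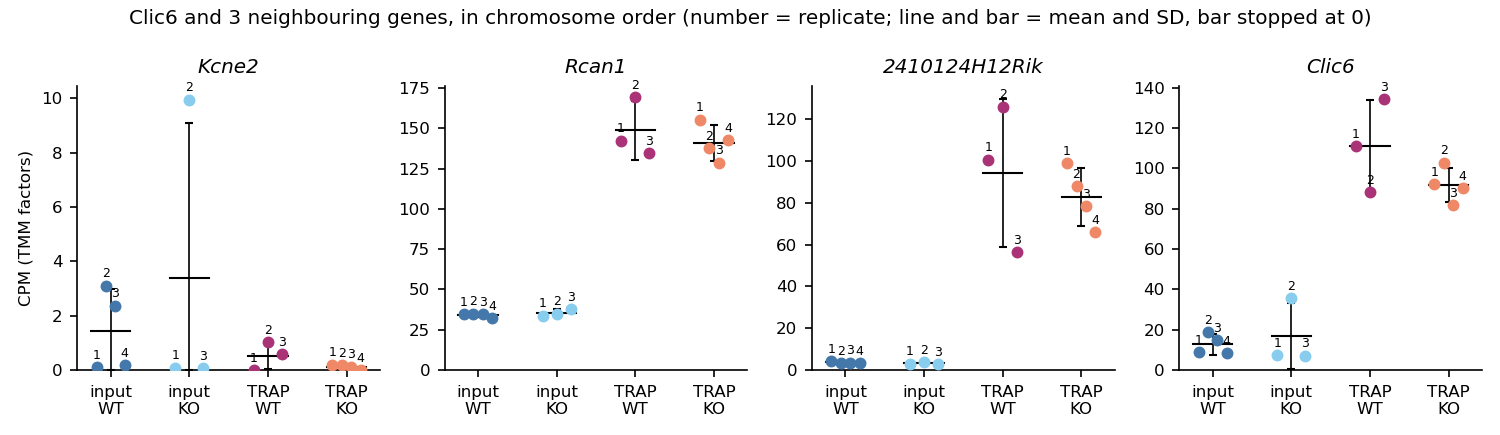
CPM with TMM factors (vertical axes from 0, own scale per panel) of Kcne2, Rcan1, 2410124H12Rik and Clic6 in the 4 groups, in their order along chromosome 16; points are libraries marked with their replicate number, and the line and bar give the mean and SD, with the bar stopped at 0. Kcne2 is high in the libraries of high Ttr, while 2410124H12Rik has 2.92 to 4.36 CPM in every input and 56.4 to 126 CPM in every TRAP library.

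Close relatives of the 8 genes were mostly lower in TRAP. Among 16 paralogs tested, made up of 4 CLIC, 5 ENPP and 5 aquaporin genes with Otx1 and Sost, 1 was higher and 14 were lower in WT, and 1 was higher and 12 lower in KO, where 37.0% and 38.5% of all genes were higher and lower in WT and 36.3% and 39.6% in KO. The one higher was Enpp5, at 0.42 (SE 0.15) in WT and 0.35 (SE 0.15) in KO on the log2 scale, and its sign turned with library totals in place of TMM factors (-0.40 and -0.38). Its WT call was lost without WT TRAP 3 (0.19) and without the 5 libraries of high Ttr (0.05), and its KO call with DESeq2 size factors, with no filter on low counts (0.33 in both) and when any 1 of several libraries was left out (0.22 to 0.35). Clic1 was 26.1 to 29.6 CPM in input and 5.31 to 10.1 CPM in TRAP, Clic4 119 to 135 and 24.2 to 38.6 CPM, and Clic5 1.08 to 1.87 and 0.205 to 0.807 CPM, so Clic6 was the 1 tested CLIC gene whose TRAP libraries stood above its inputs. The largest changes in WT were those of Aqp7 at -3.21 (SE 0.63) and Enpp6 at -2.72 (SE 0.28). Aqp7 was not called in KO, where its log2 fold change was -0.89 (SE 0.45), apart from calls without WT TRAP 3 (-0.91) and with library totals (-1.62).

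The partners through which the 8 genes act were also looked at, from fixed lists and against the background of 38.5% (WT) and 39.6% (KO) of all genes called lower. Of 6 carriers and converters of thyroid hormone and retinol tested, the molecules handed on by transthyretin, 3 were lower in WT and 5 in KO and none was higher. Slco1c1, a thyroxine transporter, stood at -2.77 (SE 0.47) and Dio2, the enzyme that activates thyroxine, at -2.57 (SE 0.18) in WT. Of 3 genes of folate uptake, 1 was higher, 1 lower and 1 not called in each genotype. Folr2, a folate receptor of macrophages, was at most 0.438 CPM in any library and lower, at -2.58 (SE 0.76) in WT and -2.98 (SE 0.67) in KO, with the WT call lost without the 5 libraries of high Ttr (-2.09). Slc19a1, the reduced folate carrier, was not called, at -0.35 (SE 0.20) and -0.35 (SE 0.19). Slc46a1, the proton-coupled folate transporter that works with folate receptor alpha, was 10.2 to 12.3 CPM in the inputs and 16.4 to 23.7 CPM in TRAP. Its log2 fold change was 0.84 (SE 0.14) in both genotypes, but with library totals in place of TMM factors, under which the median of all genes was -0.91 in WT and -0.85 in KO instead of -0.09 and -0.11, it came to 0.02 and 0.11 and was not called.

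Among klotho relatives, FGF23 and FGF receptors, 4 of 5 genes tested were lower in WT and 3 of 5 in KO, with Fgfr1 at -2.21 (SE 0.21) and Fgfr2 at -2.10 (SE 0.21) in WT. All 6 receptors for lysophosphatidic acid, the product of autotaxin, had negative log2 fold changes in WT and 5 were called lower, as were 6 of 6 in KO. The largest changes in WT were in 2 receptors under 0.5 CPM in every library, Lpar5 at -3.91 (SE 1.00) and Lpar3 at -2.67 (SE 0.81), whose calls were lost without the 5 libraries of high Ttr (-2.15 and -0.73), and in Lpar1 at -2.59 (SE 0.37), which was 25.1 to 33.2 CPM in input and 1.70 to 7.21 CPM in TRAP. Of 7 BMP ligands and LRP receptors, on which the product of Sostdc1 acts, 6 were lower in each genotype, led in WT by Lrp5 at -2.54 (SE 0.20) and with Bmp4 at -1.78 (SE 0.22).

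Genotype was compared within each fraction, in 7 libraries each, with sex in the fit. In TRAP, 5 of the 8 genes passed the filter on low counts and none was called, where 0.00707% of all genes tested passed. Ttr had a log2 fold change of KO over WT of -4.14 (SE 1.11, unadjusted p = 0.0053, adjusted p = 1.00), with 2 of the 3 WT libraries above every KO library by more than 60 CPM and the third at 2.12 CPM. Without WT TRAP 1 the value was -5.74 and Ttr was called (adjusted p = 0.0037), and without the 5 libraries of high Ttr it was -0.31 (SE 0.49). Kl stood at -1.15 (SE 0.38), Enpp2 at -0.64 (SE 0.32) and Otx2 at 0.03 (SE 0.39). Clic6 stood at -0.29 (SE 0.18), with 2 of 3 WT libraries above every KO library and WT TRAP 2 inside the KO range.

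In input all 8 genes were tested and none was called, where 0.0188% of all genes passed. The log2 fold changes of KO over WT lay between -0.13 (Ttr, SE 13.2) and 0.43 (Enpp2, SE 0.93), and the SE of Folr1, Kl, Aqp1 and Sostdc1 ran from 1.87 to 3.13. The SE is worked out from the fold and its F, so it is unreliable for a fold near 0, and 13.2 is no measure of spread. With DESeq2, Ttr stood at -0.37 (SE 2.64). With 1 of 3 KO and 2 of 4 WT inputs high in Ttr, the data do not resolve a genotype effect on 7 of these genes in either direction. Otx2 had the smallest error, at 0.35 (SE 0.28), with the 2 lowest values in WT, and its effect was not resolved either. The genotype by fraction interaction was tested in all 14 libraries and no member was called, where 0% of all genes passed; 430 genes had an unadjusted p under 0.05. Ttr came closest, at -7.15 (SE 3.12), and turned to 0.83 without KO input 2 and to 0.41 without the 5 libraries of high Ttr. Clic6 had an interaction of -0.55 (SE 0.68), which turned to 0.54 and 0.04 in those same fits.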

How the data were processed

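Values were raw whole-number counts per gene, 1 column per library, as the authors deposited them. Salmon 0.8.2 and build mm10 are named in the submitters' processing notes; how Salmon was used, the annotation and the strand setting are not given in the sources used here, so whole numbers may be rounded estimates, and overlapping genes are uncertain. Symbols came from the RefSeq table of GRCm38.p6 (24045 of 24100 matched), transcript lengths from GENCODE M21.

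edgeR 4.0.16 (R 4.3.3) gave quasi-likelihood tests, two-sided, with TMM factors, filterByExpr and Benjamini-Hochberg adjustment over all genes. TRAP against input and the interaction used 14 libraries with group means and sex; KO against WT used the 7 libraries of a fraction with sex. The SE is the absolute log2 fold change over the square root of F. The code was tested on simulated data. Alternatives were other scalings, no filter, DESeq2 1.42.0, no sex, 1 fit of all libraries, a replicate block, each library left out, and leaving out 5 libraries.

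Members, lists and the naming rule were chosen with earlier results of these data known. The rule names the 8 genes, up to 4 genes per list with the largest change past the threshold, the 5 genes most like Ttr and Clic6, Pcp2 and Astn2; others are marked. Library pairs of a group differed by more than sampling noise (chi-square per degree of freedom 8.63 to 267). Where nothing says that libraries came from separate animals, p-values measure only their spread. Intervals and limits cover counting error only. Hba-a1 and Hbb-bt were not used here. Results for 1 gene named by the rule are not reported here.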

Additional observations from a re-analysis of the deposited data

How the results depend on the processing

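In TRAP against input, 2 of 8 genes were called in WT and 8 in KO, and the counts of all genes called stayed within 1.5 times under every alternative. Clic6 stayed higher and Otx2 lower in both genotypes under every alternative run. The WT count was 3 with library totals and 4 with a replicate block (1 higher, 3 lower). The KO count was 3 without the 5 libraries of high Ttr and 3 to 8 when 1 library was left out. Kcne2 in KO ran from -6.39 to 0.95 when 1 library was left out. Enpp5 turned to -0.40 in WT and -0.38 in KO with library totals.

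Genotype results were the least stable, and the causes were not tested. In TRAP, the 1 gene called became 3 with DESeq2, 2 in 1 fit of all libraries, 3 without the 5 libraries and 1 to 2 with 1 library left out, where 0 to 1 of the 8 genes was called. Otx2 came to -0.38 and Enpp2 to 0.12 without the 5 libraries, and Otx2 ran from -0.30 to 0.32 with 1 left out. In input, the 3 genes called became 5 with DESeq2 size factors, 23 with no filter, 292 with DESeq2, 77 without the 5 libraries and 1 to 158 with 1 left out, with none of the 8 genes in any edgeR fit. Ttr came to 1.20 without sex and 2.94 in 1 fit of all libraries. Without the 5 libraries, Kl, Clic6, Aqp1 and Enpp2 came to -0.39, -0.26, -0.15 and -0.10. With 1 library left out, Ttr ran from -7.56 to 6.99, Folr1 from -4.61 to 6.16, Kl from -2.56 to 3.14, Clic6 from -1.03 to 1.30, Aqp1 from -3.12 to 3.38, Enpp2 from -1.03 to 2.04 and Sostdc1 from -5.72 to 6.26. For the interaction, DESeq2 called 1 gene where edgeR called 0. Without the 5 libraries, Ttr, Clic6, Aqp1 and Enpp2 came to 0.41, 0.041, 1.31 and 0.13. With 1 left out, Ttr ran from -8.47 to 0.83, Folr1 from -10.08 to 0.0031, Kl from -3.43 to 0.62, Clic6 from -1.10 to 0.54 and Aqp1 from -4.66 to 0.45.

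Replicate numbers were not taken as pairs, since no label states which libraries share a mouse. Deviations from the group mean correlated at 0.292, 0.243 and 0.0981 between same-numbered WT input and TRAP libraries. The KO values were 0.225, 0.225 and -0.125. Different numbers gave -0.230 to 0.181 for WT, while KO ranged between -0.230 and 0.346. WT inputs 1, 2 and 3 and KO inputs 1 and 2 correlated best with the TRAP library of their own number. KO input 3 did so with KO TRAP 4 (0.346). WT TRAP 3 correlated better with WT input 4 (0.181) than with WT input 3 (0.0981). Whether same-numbered libraries share a mouse was not tested. For KO over WT, the replicate block put KO and WT libraries of the same number together, without sex, although these are different mice. Their deviations correlated at -0.196 to 0.143. In this fit the genes called in input became 1, and Folr1, Kl, Clic6, Aqp1 and Sostdc1 came to -0.67, -0.43, -0.12, -0.50 and -0.42 in KO over WT. For TRAP against input, the block joined input and TRAP of the same number and left out WT input 4 and KO TRAP 4. There the call for Ttr in KO was lost (-2.69), and Folr1 (-1.72), Enpp2 (-1.21), Ecrg4 (-2.04), F5 (-3.50) and Cldn2 (-1.83) were also called lower in WT.

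Depth limits Folr1 and Sostdc1, each with 3 counts or fewer in 8 of 14 libraries, so that their fitted folds depend on the prior count and are no bounds.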

Other observations

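Otx2 had a set of companions of its own, looked up after its values were seen. The genes most like it across the 14 libraries, by the same measure as for Ttr and Clic6, were Draxin and Nhlh1 (r = 0.924 and 0.876), followed by Rhbdf2, Plekhd1os and Rcor2, and none of the nearest 50 was on the choroid plexus lists. Draxin, a secreted axon guidance protein, was 5.12, 4.72, 2.07 and 1.82 CPM in the WT inputs and 5.41, 6.30 and 6.62 CPM in the KO inputs. Nhlh1, a transcription factor of immature neurons, was 1.32, 1.14, 0.606 and 0.547 CPM and 1.08, 1.15 and 1.56 CPM in the same order. WT inputs 3 and 4 were the lowest inputs for all 3 genes. Like Otx2, Draxin was lower in TRAP, with log2 fold changes of -1.53 (SE 0.50) in WT and -1.79 (SE 0.44) in KO, and so was Nhlh1, at -1.30 (SE 0.48) and -1.68 (SE 0.42). The WT calls were lost without the 5 libraries of high Ttr (-1.14 and -0.88), and that of Nhlh1 also without WT input 1 or 2 or WT TRAP 3 (-1.10, -1.11 and -0.92).

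Steap1, a gene on the choroid plexus list, was singled out after its values were seen. It was chosen for the highest log2 fold change of TRAP over input on that list. It was 0.0877 to 0.879 CPM in the WT inputs and 0.208, 1.26 and 0.204 CPM in the KO inputs. In TRAP it was 0.684, 2.93 and 0.747 CPM in WT and 1.58 to 1.72 CPM in KO. Its log2 fold changes of 1.60 (SE 0.73) in WT and 1.46 (SE 0.72) in KO did not pass the threshold (adjusted p = 0.0592 and 0.0791). In KO it was called higher without KO input 2 (3.04, SE 0.68) and without the 5 libraries of high Ttr (2.99, SE 0.45), and also with a replicate block and without WT input 1 or WT TRAP 2 (1.53 to 1.93). In WT it was called in 8 of the alternatives (1.58 to 2.09), while it ran from 0.51 to 2.09 with 1 library left out. Another gene near both Ttr and Clic6 in likeness, 5930403L14Rik, was 14.7 CPM in KO input 2 and 6.13 and 4.87 CPM in WT inputs 2 and 3, against 0.993 to 1.23 CPM in the other inputs.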
